A study of Mus musculus with 2 samples.

Results

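The 100 antisense RNA genes described here are the mouse genes of this class with the most reads in a nuclear fraction of macrophages given lipid A. They were chosen from the 2948 genes all of whose annotated transcripts have the type antisense, that is, transcripts on the strand opposite to another gene. Genes named Airn, Kcnq1ot1, Tsix or Dleu2, or with a name that begins with Snhg or Mir, were left out, which kept 2941 genes. These were ranked by the smaller of their estimated counts in the 2 libraries, and the first 100 were taken. The 100 are therefore abundant by construction, and their high counts are a description. The annotation held 55536 genes in all. The series is 1 experiment on primary bone marrow-derived macrophages of C57BL/6J mice that had received lipid A, the part of bacterial lipopolysaccharide sensed by the receptor TLR4, at 100 ng/ml for 25 min. RNA of the nucleoplasmic fraction, which another label calls nuclear, was depleted of ribosomal RNA and sequenced as total RNA in 2 libraries. Replicate 1 was made from 500 ng of RNA and replicate 2 from 1 µg. Both libraries belong to the same group. Their labels number them as separate biological replicates under 1 shared donor entry, and list age and sex as not collected. Untreated cells and other fractions were not analysed here, so no value below is a response to lipid A or an enrichment in the nucleus.

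Antisense RNAs are transcribed from the strand opposite to another gene, most often a protein-coding one. Some start close to the start of that gene and run away from it, some lie wholly inside one of its introns, and some run into it from beyond its end. A few act on the neighbouring gene in cis, through chromatin, the act of transcription or pairing with its RNA, and most have no known function. In macrophages lipid A switches on inflammatory genes within minutes, and nuclear RNA holds both finished nuclear transcripts and precursors that are still being spliced.

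The RNA ranked second, F630028O10Rik, is the host transcript of miR-223, a microRNA that is abundant in myeloid cells and restrains inflammatory signalling. The hairpin lies inside the last exon of the RNA, at chrX:96242817-96242926 on the plus strand (mm10), 2892 bases from the gene's start. Its mature arms are shown because they are the known product of the second most abundant antisense RNA here. Sequences are from RefSeq (GRCm38.p6), written 5′ to 3′, and capitals mark the seed, bases 2 to 8.
mmu-miR-223-5p: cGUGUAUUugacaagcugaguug
mmu-miR-223-3p: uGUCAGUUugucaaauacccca
Each of these seeds occurred in 1 of the 1738 mature mouse microRNAs of that table. The hairpin, which the annotation counts apart from its host, was listed at 0 in both libraries. Mir1900 lies inside Gm47079 and was also listed at 0 in both. Both hairpins lie in an exon of the host on the same strand, where reads can be counted on the host. A listing at 0 is therefore no sign that the microRNA is absent.

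RefSeq start windows, each with 250 bases before and 50 bases from the start onward, were matched by symbol for 34 of the 100 genes. 16 of these windows lay within 100 bases of the GENCODE start, and the others lay up to 54342 bases from it. The 4 windows below show how different the starts were. F630028O10Rik (chrX:96239676-96239975, plus strand) has a start poor in CpG before an abundant spliced RNA. Tug1 (chr11:3648765-3649064, minus strand) has a CpG-rich start. Dnmt3aos (chr12:3862195-3862494, minus strand) has a start in an intron of Dnmt3a with an AP-1 motif. Bcas3os1 (chr11:85719695-85719994, minus strand) has a TATA motif that reads on the opposite strand. Each window is written on the strand of the antisense gene, and capitals mark a motif that was searched.
F630028O10Rik: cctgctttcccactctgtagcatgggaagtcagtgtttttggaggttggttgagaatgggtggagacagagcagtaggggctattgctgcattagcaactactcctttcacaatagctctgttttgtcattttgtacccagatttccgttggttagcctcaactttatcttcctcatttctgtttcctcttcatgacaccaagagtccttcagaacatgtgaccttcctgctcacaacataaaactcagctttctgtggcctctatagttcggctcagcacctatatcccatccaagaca
Tug1: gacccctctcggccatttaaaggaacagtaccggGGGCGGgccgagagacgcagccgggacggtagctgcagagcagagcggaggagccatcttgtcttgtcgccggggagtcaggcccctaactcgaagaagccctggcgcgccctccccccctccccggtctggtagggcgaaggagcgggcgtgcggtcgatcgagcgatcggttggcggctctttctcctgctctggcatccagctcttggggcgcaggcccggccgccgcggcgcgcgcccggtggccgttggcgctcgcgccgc
Dnmt3aos: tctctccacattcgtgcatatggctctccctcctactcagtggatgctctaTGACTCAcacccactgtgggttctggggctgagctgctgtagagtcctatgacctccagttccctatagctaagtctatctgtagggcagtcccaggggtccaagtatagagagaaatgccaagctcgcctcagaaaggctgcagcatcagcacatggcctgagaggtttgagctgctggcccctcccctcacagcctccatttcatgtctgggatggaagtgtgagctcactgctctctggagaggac
Bcas3os1: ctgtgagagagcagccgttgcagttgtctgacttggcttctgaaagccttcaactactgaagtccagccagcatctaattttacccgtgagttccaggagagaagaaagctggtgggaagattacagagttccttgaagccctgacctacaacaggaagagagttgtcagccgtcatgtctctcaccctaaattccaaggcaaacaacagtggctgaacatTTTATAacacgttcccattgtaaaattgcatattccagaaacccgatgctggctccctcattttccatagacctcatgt
The Tug1 window holds a GC box (GGGCGG) that begins 216 bases before the RefSeq start, which is itself 859 bases from the outermost GENCODE start. The Dnmt3aos window holds the AP-1 motif TGANTCA beginning 199 bases before the start. The Bcas3os1 window holds TATAAA, read on the opposite strand, beginning 29 bases before the start. None of the motifs searched was found in the F630028O10Rik window. Motifs were searched on both strands with N as any base. The share of windows with CCAAT was 14 of 34 (41.2%) against 37.4% of all 32851 RefSeq windows, and with TATAAA it was 5 of 34 (14.7%) against 13.6%. Of these 5 windows, those of Zmiz1os1, Gm10634 and Gm4117 lay 54342, 28244 and 5763 bases from the GENCODE start. Those of Gm36266 and Bcas3os1 lay 146 and 0 bases from it. GGGCGG was present in 8 of 34 (23.5%) against 35.7%, and TGANTCA in 2 of 34 (5.88%) against 7.81%. The NF-kB-like motif GGANTTTCC was present in 2 of 34 (5.88%) against 1.25%, the PU.1-like motif GAGGAAGT in 1 of 34 (2.94%) against 3.20%, and neither TGACGTCA (1.79% of all windows) nor TTCCNGGAA (1.15%) was found. The ratio of observed to expected CpG was at least 0.6 in 8 of the 34 windows and in 35.8% of all windows. Among the 8, the windows of Gm16712, Etohd2, Gm26885, Gm16892 and Gm7008 also hold exons of a coding gene, and the others do not. These matches describe letters in the windows, and binding was not measured.

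The exons of the 100 genes lay mostly opposite introns. In 68 of the 100, more than 50% of the exonic bases faced an intron of an opposite-strand gene, against 55.7% of all 2941 ranked genes. In 24, more than 50% lay outside every opposite-strand gene (27.0% of all ranked genes), in 2 more than 50% faced exons (12.6%), and 6 were mixed (4.69%). 29 genes lay wholly opposite introns, and 34 shared no base with an opposite exon. These classes were drawn after the data were seen. By position relative to the partner, defined as the protein-coding gene on the opposite strand with the largest overlap or, where there was none, any other opposite gene, 56 lay inside the partner, 19 overlapped its start head to head, 19 overlapped its end tail to tail, 4 spanned it and 2 (F630028O10Rik and 4930430E12Rik) had no opposite-strand gene. The corresponding shares of all ranked genes were 54.8%, 20.5%, 14.3%, 3.88% and 6.46%. The 100 genes had a median of 2780.5 exonic bases, against 885 in the other ranked genes. In those of the others with at least 10 counts in both libraries it was 1685.5. The counts that ranked the genes were not scaled for length. 15% had a single exon in every transcript, against 6.02% of the others.

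**Figure D1:**
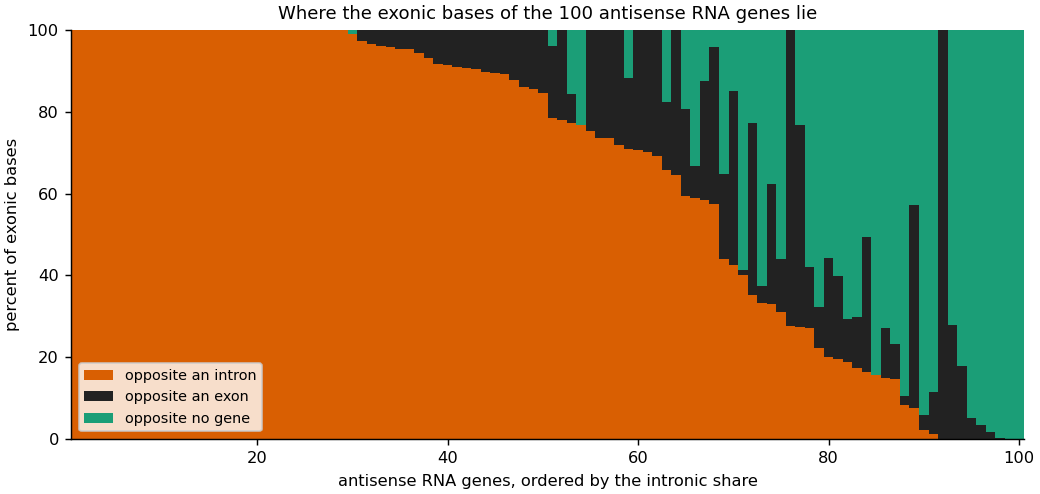
Share of exonic bases (percent, y axis) that faces an opposite-strand intron, an opposite-strand exon or no gene, in a bar for each of the 100 antisense RNA genes (x axis, ordered by the intronic share). 29 bars are wholly intronic, and 68 have more than 50% of their bases opposite introns.

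Whether the reads keep their strand decides what these counts can be. A count that is a whole number in both libraries gives no sign of reads shared with another gene, and a fractional count shows that reads were shared. Of the 33 members that overlapped no exon on either strand, 32 had whole-number counts in both libraries (within 0.005). Of the 47 that faced at least 200 bases of opposite exons, and no exon of their own strand, 7 did, and of the 16 that faced fewer such bases, but some, 10 did. Among all ranked genes that had 10 counts or more in each library the order was alike, with 200 of 205 (97.6%), 29 of 253 (11.5%) and 97 of 133 (72.9%). Reads were thus divided between genes that share bases only on opposite strands. A read from an unspliced precursor of the partner and a read from an antisense RNA inside its intron cannot be told apart in these tables, and this holds for the 68 mostly intronic genes in particular. Of the genes described next, F630028O10Rik has no opposite-strand gene, so this limit does not touch it.

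Macrophage markers were present in both libraries. Depth was 13506939 and 17932332 estimated counts on annotated genes. Of 10 macrophage markers, 9 were at a TPM (a level scaled for transcript length and library size) of at least 1 in both libraries, with a summed TPM of 4408 and 3626, and the exception was Cx3cr1. Of 30 markers of T cells, B cells, neutrophils, erythroid cells, mast cells and fibroblasts, 2 (Cd4 and S100a9) reached that level. In bulk RNA, fewer cells of a type and less RNA per cell cannot be told apart.

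The 100 genes together held 0.324% of the counts in replicate 1 (95% Wilson interval 0.321% to 0.327%) and 0.349% in replicate 2 (0.346% to 0.352%), with a mean of 0.337% ± 0.0177 (SD, n = 2). These intervals take in counting error alone and treat every read as independent. Reads that carry no molecular identifier need not be, so the intervals can be too narrow. All 2941 ranked genes held 0.511% and 0.518%, so the 100 held 63.4% and 67.4% of the antisense counts. The first 5 alone held 34.0% and 33.6% of the counts of the 100. Of the others ranked, 1026 were at 0 in both libraries, and 614 ranked genes, members included, had at least 10 counts in both. The median level of the 100 was 9.14 TPM in replicate 1 (range 1.11 to 193) and 8.21 TPM in replicate 2 (range 0.72 to 146). On the log2(TPM + 1) scale the median was 3.34 and 3.20, or 3.27 ± 0.098 (SD, n = 2). 99 of the 100 reached 1 TPM in both libraries, 67 reached 5 TPM and 16 reached 20 TPM. Among all annotated genes 22.5% reached 1 TPM in both, and among protein-coding genes 44.5%, but the ranking on counts fixes most of this and nothing is read from it.

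**Figure D2:**
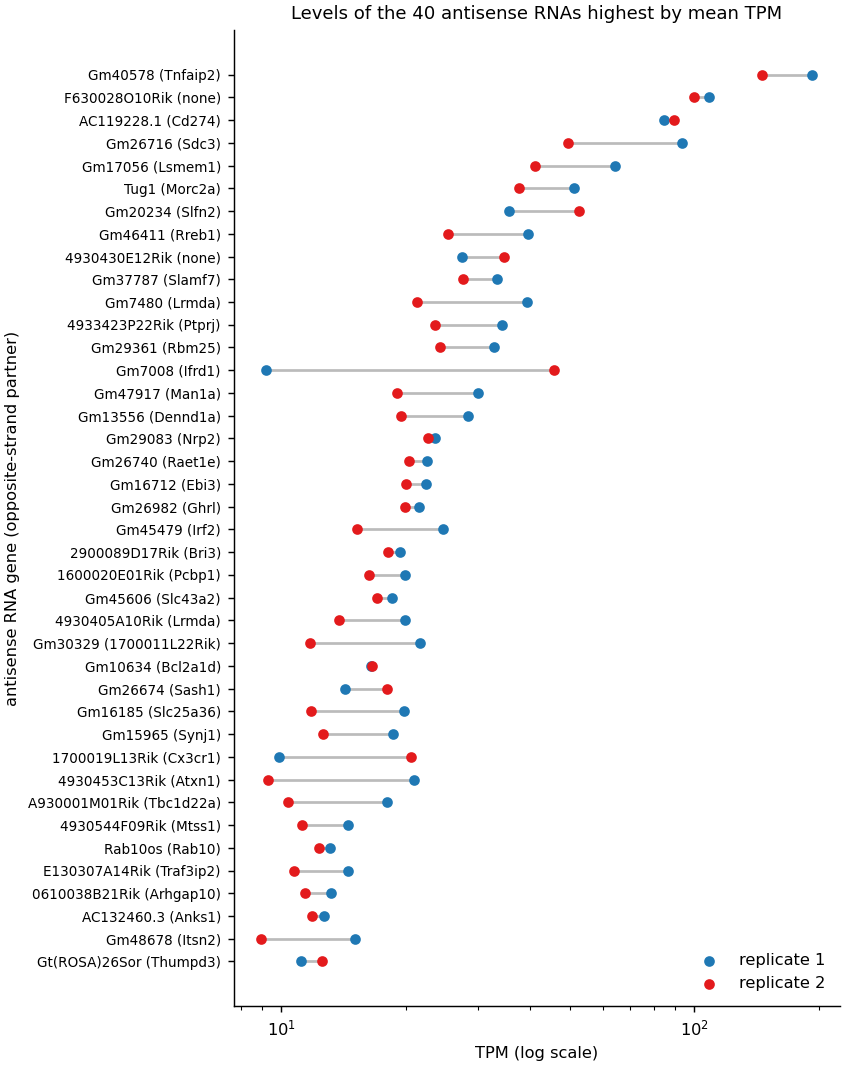
TPM (log scale, x axis) in replicate 1 and replicate 2 of the 40 antisense RNA genes with the highest mean TPM, with the partner in parentheses. Grey lines join the 2 libraries. Gm40578, F630028O10Rik and AC119228.1 lead, and Gm7008 has the widest gap between libraries on this log scale, from 9.18 to 45.8 TPM.

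AC119228.1 had the most counts, 4330 in replicate 1 and 7285 in replicate 2, or 84.4 and 89.2 TPM. It lies at chr19:29373417-29384471 on the minus strand, wholly inside Cd274, which encodes PD-L1, the ligand that restrains T cells through PD-1. Of its exonic bases 10.8% faced exons of Cd274 and 89.2% its introns. The last exon of its leading transcript is 4361 bases long and shares 396 bases with Cd274 exons. Cd274 itself stood at 168 and 129 TPM, above its antisense RNA in both libraries. Gm40578 had the highest level for its length, 193 and 146 TPM, from 1858 and 2469 counts. It begins far beyond the end of Tnfaip2, a gene induced by tumour necrosis factor. The last exon of Gm40578 lies wholly inside Tnfaip2, with 314 of 665 bases opposite exons and 351 opposite introns. That exon is part of the leading transcript, 920 bases long, which held 100% in both libraries. The limit on telling reads apart given above therefore holds for this exon too. Tnfaip2 stood at 898 and 860 TPM.

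F630028O10Rik had 3942 and 6154 counts, or 108 and 99.6 TPM. It faces no gene, and both of its counts were whole numbers. Tug1, a widely expressed and conserved long noncoding RNA, had 2913 and 3097 counts, or 51.2 and 37.6 TPM. It stood above Morc2a, which encodes an ATPase of heterochromatin silencing, at 26.7 and 17.9 TPM. The outermost starts of Tug1 and Morc2a lie 482 bases apart on opposite strands. Of the exonic bases of both RNAs, at most 4.96% (in Tug1) faced a coding partner's exons.

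Gm17056 had 1837 and 2002 counts, or 64.4 and 41.2 TPM, all whole numbers, and overlaps the start of Lsmem1, which was listed at 0 counts in both libraries. Gm17056 also ends 462 bases past the end of Ifrd1, a transcriptional coregulator gene on the opposite strand at 1016 and 809 TPM. Whether RNA that runs past the end of Ifrd1 adds to these counts was not tested. It was the 1 gene of the 24 mostly outside opposite genes that lay so close past such an end. Within 5000 bases there were 2 more, Gm45606 at 3695 bases past Scarf1 and Gm26982 at 3902 bases past Tatdn2.

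Most of the next members by count lay in introns. 4933423P22Rik (1276 and 1653 counts, 34.3 and 23.6 TPM) lies in introns of Ptprj, a receptor tyrosine phosphatase, at 64.6 and 48.7 TPM. Gm46411 (976 and 1068 counts, 39.5 and 25.3 TPM) lies in introns of Rreb1, a zinc finger transcription factor, at 55.4 and 48.3 TPM. Gm16185 (812 and 819 counts, 19.8 and 11.8 TPM) lies in introns of Slc25a36, a mitochondrial nucleotide carrier, at 58.6 and 51.2 TPM. All 3 are wholly intronic with whole-number counts, and all 3 stood below the host gene. A930001M01Rik (722 and 781 counts, 18.1 and 10.4 TPM) likewise lies wholly in introns of Tbc1d22a, and stood below it at 60.6 and 39.9 TPM.

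Gm29361 (799 and 1009 counts, 32.7 and 24.2 TPM) is a single exon of 2000 bases inside Rbm25, a splicing factor gene at 204 and 133 TPM. Gm26811 (725 and 865 counts, 10.1 and 7.11 TPM) overlaps the end of Plxna1, a semaphorin receptor gene at 79.7 and 52.8 TPM. Gm30329 (850 and 780 counts, 21.7 and 11.8 TPM) departs from this pattern, because its host 1700011L22Rik stood lower, at 2.92 and 3.38 TPM. The level of the host rests on only 11 and 24 counts. The 3 exons of Gm30329 lie wholly in introns of that gene.

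Of the 8 genes with the highest mean TPM, 2 were not among the first 12 in counts. Gm26716 is 415 exonic bases long, all of them opposite exons of Sdc3, a heparan sulphate proteoglycan gene, and had 256 and 263 counts, or 93.2 and 49.4 TPM. Sdc3 stood at 86.9 and 65.1 TPM, so the order of the pair differed between the libraries. Gm20234 is 717 exonic bases long and had 245 and 644 counts, or 35.7 and 52.6 TPM, mostly opposite introns of Slfn2, a Schlafen family gene at 218 and 204 TPM. For both, the estimate depended on the quantification, as described further on.

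The partners were active genes. The 100 members had 98 with an opposite-strand gene, 97 of them with a protein-coding partner, and these were 96 distinct genes since 2 members share Lrmda. Of the 96, 86 (89.6%) were at 1 TPM or above in both libraries, against 1087 of 2270 (47.9%) partners of the other ranked antisense genes. The median partner level was 36.5 and 24.7 TPM, against 1.32 and 0.76 TPM for the other partners. Since reads of an active partner can be counted on the antisense gene, as shown above, this difference and the choice of members by count cannot be told apart. Across the 98 pairs, the level of the member and of its partner on the log2(TPM + 1) scale correlated with a Pearson r of 0.36 and Spearman rho of 0.38. In the 68 mostly intronic genes the values were 0.38 and 0.45, and in the 22 mostly outside with a partner they were -0.06 and -0.0017. These are descriptions over genes of the same 2 libraries.

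The members stood below their partners in most pairs. The median log2 ratio of member to partner, from log2(TPM + 1), was -1.58 in replicate 1 and -1.70 in replicate 2, or -1.64 ± 0.089 (SD, n = 2). 77 of 98 were lower than the partner in both libraries, and 38 more than 4-fold lower in both. 18 of 98 were higher in both, against 10.1% (60 of 596) of all ranked antisense genes with at least 10 counts and a partner. The members were chosen on their counts and are part of the 596, so nothing is read from this difference. The median ratio was -1.76 in the mostly intronic genes, of which 10 of 68 were higher, and -0.58 in the genes mostly outside, of which 6 of 22 were higher.

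**Figure D3:**
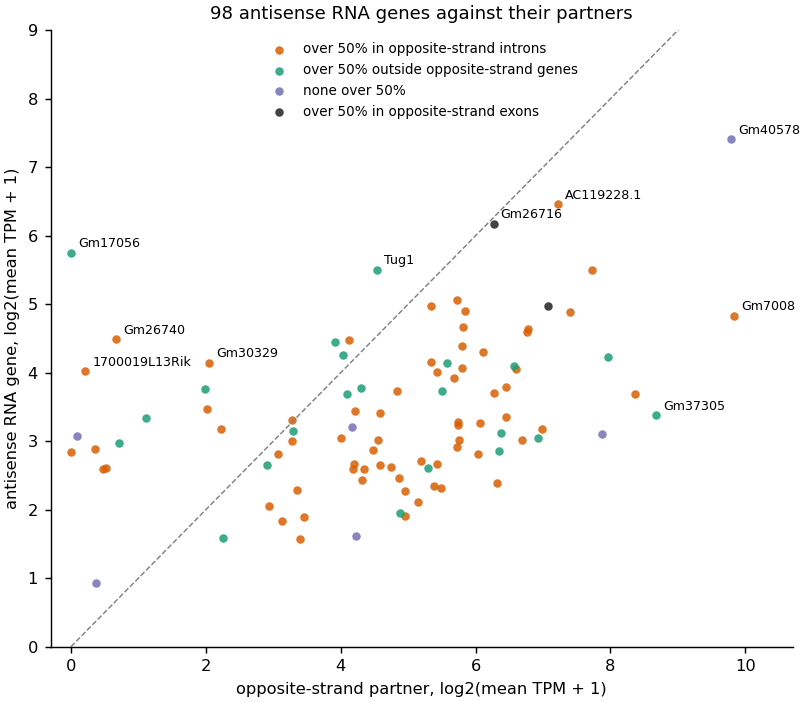
Mean level of each antisense RNA gene (y axis) against its partner (x axis), both as log2(mean TPM + 1), for the 98 genes with an opposite-strand gene, coloured by where their exonic bases lie. The dashed line marks equal levels, and most points lie under it.

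The partners of these 18 genes were mostly low. In 7 the partner was itself at 1 TPM or more in both libraries, for Gm30329 from only 11 and 24 counts. Besides Tug1 and Gm30329 these include Gm16712, at 22.4 and 20.1 TPM against 12.9 and 19.9 TPM for Ebi3, a subunit of interleukin 27. The margin of Gm16712 in replicate 2 was therefore small. In 10 others the partner was under 1 TPM in both libraries, and in B930036N10Rik it was so in replicate 2 alone. Gm26740 stood at 22.5 and 20.4 TPM inside Raet1e, a gene for a ligand of the activating receptor NKG2D, at 0.32 and 0.87 TPM. Gm27177 stood at 8.81 and 4.02 TPM opposite Loxl2, a lysyl oxidase-like gene, at 0.30 and 0.25 TPM, and Etohd2 at 7.44 and 4.94 TPM opposite Gm49354, listed at 0.

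The largest overlap does not always pick the most active gene on the opposite strand. In 8 of the 98 members another opposite-strand gene had the higher level. For 6 of the 10 genes with a partner under 1 TPM, another opposite gene was at 1 TPM or more in both libraries. 1700019L13Rik stood at 9.90 and 20.6 TPM, with Cx3cr1, the fractalkine receptor, at 0.24 and 0.08 TPM as its partner, but it also overlaps Csrnp1, a nuclear transcription factor gene, at 88.3 and 83.7 TPM, and its leading transcript shares 224 bases with Csrnp1 exons. Gm47079 stood at 6.54 and 8.27 TPM with Icam4 as its partner at 0 and 0.13 TPM, but it runs into the end of Icam1, an adhesion receptor gene, at 195 and 318 TPM. Etohd2 also faces Tut7, a uridylyltransferase gene, at 101 and 72.6 TPM. Gm27177 also faces Entpd4b, at 9.42 and 6.98 TPM, and stood below it in both libraries. With the most active opposite gene as partner, an alternative chosen after seeing the data, 14 members remained above every opposite gene in both libraries.

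At the other end were 4 genes far below a strongly expressed partner. Gm7008 stood at 9.18 and 45.8 TPM inside Ifrd1 at 1016 and 809 TPM. Gm37305 stood at 7.41 and 11.4 TPM, with its start 491 bases from that of Ccnl1, a cyclin of splicing kinases, at 450 and 368 TPM. Gm26885 stood at 5.65 and 9.55 TPM opposite the start of Pim1, a serine/threonine kinase gene induced by cytokines, at 237 and 232 TPM. Gm2245 stood at 9.40 and 14.3 TPM inside Fyb, an adaptor of immune cells, at 358 and 297 TPM. The log2 ratios to the partner, as means of the 2 libraries, were -5.38, -5.32, -4.81 and -4.70 in this order. For Gm7008 the ratio was -6.64 in replicate 1 and -4.11 in replicate 2. In replicate 2 the others were all lower than Gm7008, at -4.89, -4.47 and -4.28 in the same order.

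Listed genes of the lipid A response and of macrophages were set against the 100. 9 lists with 231 genes were drawn up of immediate early factors, early cytokines, NF-kB and MAP kinase feedback genes, late inflammatory and interferon genes, the TLR4 pathway, macrophage genes and nuclear RNA processing and chromatin genes. 31 of the list entries face an antisense gene that could be ranked, in 14 of them one with at least 10 counts in both libraries, and 1 (Cx3cr1 of the macrophage list, opposite 1700019L13Rik) a gene among the 100. That is 0.433% of the listed genes, beside 0.513% (113 of 22028) of all protein-coding genes, so nothing is read from it. Antisense genes of lower rank include Kdm6bos opposite Kdm6b, a histone demethylase gene, ranked 127 with 96 and 202 counts, and Gm28914 opposite Ikbke, a kinase of interferon signalling, ranked 178 with 65 and 150 counts. Il1bos, opposite Il1b, had 47 and 91 counts, or 2.17 and 2.57 TPM, against 401 and 489 TPM for Il1b. Junos had 27.2 and 62.0 counts, or 4.86 and 6.49 TPM, beside Jun at 137 and 172 TPM. These 4 were named after their values were seen.

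Few members differed by more than 2-fold between the libraries. Ratios of replicate 2 to replicate 1 are log2 of TPM + 1, minus their median of -0.42 over the 14584 genes that had 10 counts or more in each library. On this scale the 100 had a median of 0.046 and ranged from -0.83 to 2.62, and 56 were above 0. Without the median of all genes subtracted, their median was -0.38, so a direction here is relative to other genes. 5 were more than 2-fold higher in replicate 2, against 1.22% of all those genes, and none was more than 2-fold lower, against 0.487%. With 1 library on each side there is no replicate check of a ratio, and the replicate and the amount of RNA it was made from cannot be told apart.

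The 5 were Gm7008, 1700019L13Rik, Gm49774, Gm26885 and Gm10425. Gm7008 had 144 counts in replicate 1 and 1242 in replicate 2, and the widest ratio, 2.62. 1700019L13Rik had 200 and 697 counts and a ratio of 1.41. Gm49774, a single exon of 10812 bases whose start lies 21 bases from that of Hmga1, a chromatin architectural protein gene, had 260 and 962 counts and a ratio of 1.25. Gm26885 had 246 and 694 counts and a ratio of 1.09, and Gm10425, inside Exoc3l4, had 230 and 640 counts and a ratio of 1.05. 4 of these 5 had a partner with at least 10 counts in both libraries. None of the 4 partners passed 2-fold, and all 4 were above 0, from 0.095 for Ifrd1 to 0.71 for Exoc3l4. How many passed depended on the scaling. Gm7008 alone was more than 2-fold higher without the median subtracted and in the alignment-free table, where 2 were more than 2-fold lower in each case, and 9 and 12 were higher with edgeR's TMM and DESeq2's size factors. In the alignment-free table Gm26885 turned to -1.05, so that its direction depends on the quantification, and Gm7008 was at 1.95.

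The lowest ratios belonged to Gm16892, 4930453C13Rik, Gm27177 and Gm26716. Gm16892, at the end of Tbc1d23, had 255 and 162 counts and a ratio of -0.83. 4930453C13Rik, inside Atxn1, had 158 and 124 counts and a ratio of -0.67. Gm27177 had 295 and 220 counts and a ratio of -0.54, and Gm26716 a ratio of -0.48.

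Members outside opposite genes leaned to replicate 2 more than intronic ones. Of the 24 mostly outside, 21 were above 0 with a median of 0.33, and of the 68 mostly intronic 29 were above 0 with a median of -0.055. In all ranked genes with at least 10 counts the medians were 0.23 and 0.13. The difference between the classes was not tested. Over the 89 members whose partner had at least 10 counts in both libraries, the ratio of the member and of its partner correlated with a Pearson r of 0.28 and Spearman rho of 0.31, a weak relation over genes of the same libraries.

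**Figure D4:**
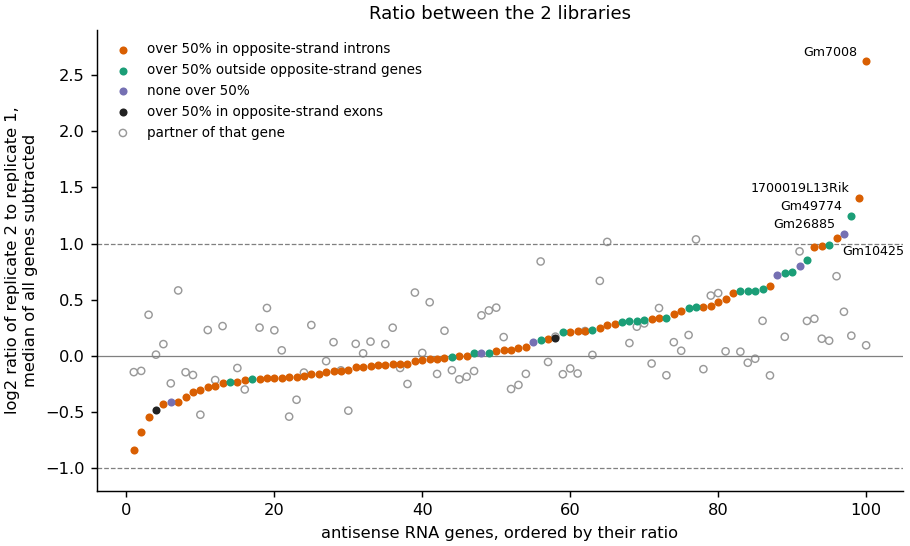
Log2 ratio of replicate 2 to replicate 1 with the median of all genes subtracted (y axis) for the 100 antisense RNA genes in order (x axis, filled points, coloured by where the exonic bases lie) and for their partners with at least 10 counts in both libraries (open points). Dashed lines mark 2-fold. 5 genes lie above the upper line and none below the lower.

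Most members with several transcripts were counted mainly on one. 55 of the 100 have 1 annotated transcript. In the other 45 the median share of TPM on the leading transcript was 79.0% in replicate 1 and 81.8% in replicate 2, or 80.4% ± 2.00 (SD, n = 2), and 16 had at least 90% in both. The leading transcript was the same in both libraries in 39 of the 45 and the same in both transcript tables in 33. Tug1 was among those that differed: the leading transcript held 40.4% and 21.3% in the table from alignments, and another led with 37.8% and 30.4% in the alignment-free table. 4933423P22Rik, A930001M01Rik and 2900089D17Rik also led with different transcripts in the 2 tables. In 2900089D17Rik 1 transcript held 100% and 94.9% in the first, and the other held 80.1% and 82.1% in the second. AC119228.1 led with the same transcript in both tables, at 87.5% and 81.8% in the first.

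The alignment-free table gave the same order of size for most members and a very different count for a few. Its depth on annotated genes was 25317223 and 26308342 estimated counts. Its count divided by that of the gene table had a median of 1.65 over the 100 and 1.60 over all genes with at least 10 counts. 3 members exceeded 5-fold. Gm4117 has 52997 exonic bases in introns of 2 opposite genes, Vcan and its partner Xrcc4, a DNA repair gene. Gm4117 had 296 and 323 counts by alignment and 5182 and 3856 here. Gm20234 had 3312 and 4293 counts there, and Gm9917, opposite Rassf1, had 1099 and 1299 against 161 and 139. Gm26782, with its start 236 bases from that of Tep1, followed with 854 and 687 against 150 and 198. At the low end Gm26716, which lies wholly opposite Sdc3 exons, had 196 counts in replicate 1 and under 1 in replicate 2, against 256 and 263 in the gene table. The other low ones were F630028O10Rik with 5505 and 6723, Gm47079 with 427 and 663 and Gm26811 with 1032 and 972, all above their gene-table counts. The gene table's own standard deviation of the estimate was 0 in both libraries for 45 members and exceeded 10% of the count in 1, Gm27177.

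**Figure D5:**
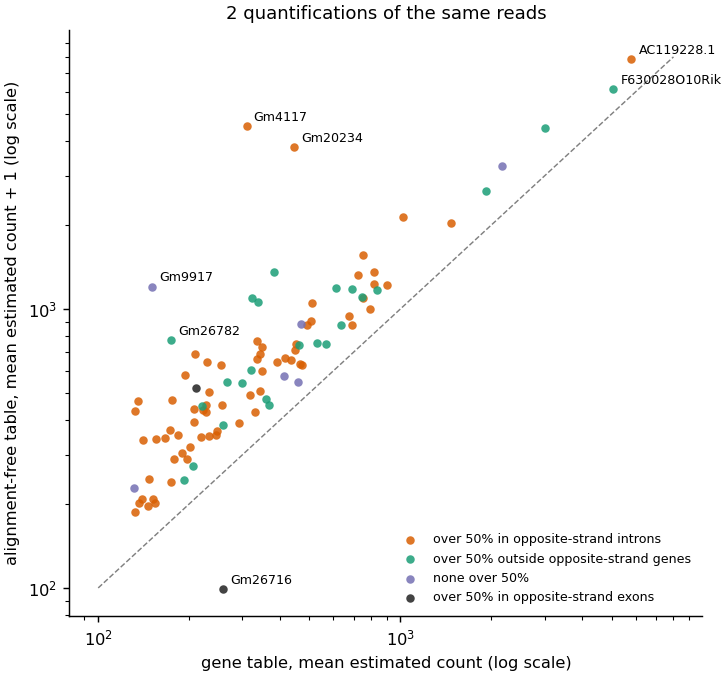
Mean estimated count of the 2 libraries in the gene table (x axis, log scale) and in the alignment-free table (y axis, log scale, 1 added) for the 100 antisense RNA genes, coloured by where their exonic bases lie. The dashed line marks equal counts. Gm4117, Gm20234 and Gm9917 lie farthest above it and Gm26716 below it.

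The last members were Gm45188 with 127 and 137 counts, Gm16638 with 126 and 137, and 4930453C13Rik with 158 and 124. Just outside were Gm45472 with 124 and 203 counts, Uckl1os with 123 and 162, and Gm37696 with 123 and 131. The limit thus falls between genes of nearly equal counts. Ranked by the smaller alignment-free count, 70 of the 100 remained, and by the smaller TPM 66 did.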

How the data were processed

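Total RNA of 2 libraries of the same group was measured. Per the deposited readme, the authors used assembly mm10 and GENCODE M21. They deposited expected counts (estimated counts per gene and per transcript, which need not be whole), TPM, the quantifier's posterior standard deviation of each count, and the percent of a gene's TPM held by each transcript, all from alignments to the transcriptome, and estimated counts and TPM per transcript from an alignment-free method. The quantifiers' names and the strand setting were not given in the sources used here. TPM was used as deposited.

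The members, gene lists and settings were chosen with earlier results of these data known. Rows that are no annotated gene (0.350% and 0.0785% of counts) were left out. Transcript types came from the alignment-free table and positions from GENCODE M21. With 1 group of 2 libraries no test between conditions exists, so values are given per library with mean and SD, and a difference by its size. A count of 0 allows up to 3 counts. The partner is the protein-coding opposite-strand gene with the largest overlap. Named were the 12 members with the highest smaller count, the 8 with the highest mean TPM, the 4 widest ratios between libraries each way, the 6 highest and 4 lowest ratios to the partner, members opposite a list gene, 3 genes on each side of the limit, the 4 widest ratios between quantifications each way, and 4 whose leading transcript differed. The ratio step was tried on simulated counts with known changes. These held counting error alone, so spread between replicates and reads shared between strands were not tested. Counts were rounded for the scaling factors of edgeR 4.0.16 and DESeq2 1.42.0, which were used only as alternatives. Intervals came from SciPy 1.17.1 in Python 3.11.15. Alternative pseudocounts, scalings, tables and single libraries were tried.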

Additional observations from a re-analysis of the deposited data

How the results depend on the processing

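No paired analysis was possible because both libraries form 1 group. Of 46 alternative values, 25 stayed within the spread between the libraries (for the ratio between libraries, within 0.1 on the log2 scale) or within 1.5 times the count. Another 20 moved and 1 reversed. Where the spread was the SD of 2 libraries, a single library always lies within it, so those values are no check. The ranking on counts also fixed most of the detection counts. The reversal was in the members' median ratio of replicate 2 to replicate 1. It was -0.38 against 0.046 when the median of all genes was not subtracted, a setting added after seeing the data. Gm26885 by itself turned from 1.09 to -1.05 in the alignment-free table. The median log2 level of 3.27 became 3.13 with a pseudocount of 0.1 TPM, 2.22 in the alignment-free table, 4.32 as CPM and 3.75 when TPM was rescaled without mitochondrial genes and genes under 200 bases. It was 3.20 and 3.34 in single libraries. The share of counts was 0.361% in the alignment-free table, and 0.324% to 0.349% in single libraries. The median log2 ratio to the partner was -1.74 with a pseudocount of 0.1 TPM, -1.39 in the alignment-free table, -2.25 as CPM and -1.74 with the most active opposite gene as partner, an alternative added after seeing the data. It was -1.70 to -1.58 in single libraries. The number above the partner was 14 to 21. Members more than 2-fold higher in replicate 2 numbered 1 without the median subtracted, 9 with TMM, 12 by DESeq2 scaling, 1 from alignment-free values and 8 with a minimum of 100 counts for the median, and 2 were more than 2-fold lower both without the median subtracted and from alignment-free values, so that in these settings more members were lower than higher. The median ratio was 0.15 with TMM and 0.18 with DESeq2 size factors. The median share of the leading transcript was 67.2% in the alignment-free table. 66 members were kept when ranked by TPM. The causes of these shifts were not tested. Members were detected in 99 or 100 of 100 in single libraries and in 82 in the alignment-free table. Depth limits the last ranks, where members differ by a few counts.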
